A study of Mus musculus with 6 samples.

Results

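The heat shock response was followed through 10 mouse genes in MS-5 stromal cells, namely the regulator Hsf1, the stress-inducible chaperone genes Hspa1a, Hspa1b, Hsp90aa1, Hspb1, Dnajb1 and Hsph1, and the constitutive chaperone genes Hspa8, Hsp90ab1 and Hspd1. The genes were chosen by name, with earlier results of these data known. All 10 have transcripts in the deposited files, 62 in all, among 35968 genes with a transcript there. MS-5 is a mouse stromal cell line and SKM-1 a human AML cell line. There were 3 libraries of MS-5 cells cultured alone (MS-5 alone: MO1, MO2 and MO3) and 3 of MS-5 cells after 24 hr with SKM-1 cells (co-culture: MC1, MC2 and MC3). Both groups were grown in RPMI medium with FBS , and the labels name no genetic change or drug. Co-cultures held 4 AML cells per stromal cell, with SKM-1 at 750000 cells per ml, and the stromal layer was washed and mildly trypsinised to take off AML cells before it was detached. The labels do not say whether the libraries of a group came from separate cultures, so that p-values measure the spread between these libraries, which may be technical.

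Heat shock proteins are molecular chaperones that help other proteins fold and keep damaged ones from clumping. HSF1 is held inactive by chaperones in unstressed cells. When unfolded proteins draw those chaperones away, HSF1 forms trimers, binds heat shock elements, which are inverted repeats of the bases NGAAN, and turns on the inducible chaperone genes. The constitutive members are made at high levels in growing cells without stress.

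Total estimated counts lay between 23978881 and 35694987 per library. MO2 and MC3 stood apart from the other 4 libraries, with 65170 and 66456 transcripts with a count against 51533 to 57350, and with 3.37% and 3.41% of their counts on transcripts annotated as retained introns against 1.48% to 1.63%. Of the 10 stromal markers listed, Lum and Dcn had at most 2 counts in any library and Thy1 at most 4.25 CPM (counts scaled to library size, normalized by TMM), while the sum of the list was between 5130 and 10020 CPM. Of the 10 leukocyte markers listed, 6 had each co-culture library above all libraries of MS-5 alone, beside 11.6% of the 13221 genes tested, and the sum of the list was 39.2, 36.9 and 37.9 CPM in MO1, MO2 and MO3 and 80.5, 301 and 78.1 CPM in MC1, MC2 and MC3. The defining marker Ptprc was at most 0.318 CPM in MS-5 alone and reached 17.0 CPM in MC2. Cd53 and Arhgdib overlapped between groups. Cd53 was 2.75 to 6.66 CPM in MS-5 alone and 3.58 to 4.70 in co-culture. Arhgdib was 3.79 to 5.21 and 3.17 to 4.70 CPM. Cd48 and Tyrobp had at most 1 count in any library. These are counts on mouse genes, while SKM-1 is a human line. In such bulk RNA, fewer cells of a type and less RNA per cell cannot be told apart.

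None of the heat shock genes passed the main test between co-culture and MS-5 alone. By edgeR's quasi-likelihood test with a threshold of 0.1 on the adjusted p, 0 of the 9 members that passed the filter on low counts were called, beside 4.38% of the 13221 genes tested (3.71% higher and 0.666% lower). At an unadjusted p under 0.05 the count was also 0 of 9, beside 14.3% of all genes, and DESeq2, which called 9.59% of all genes, called 0 members as well. Limma on log2 TPM called 0 members too, beside 3.83%, 2.69% and 1.69% of all genes at pseudocounts of 0.1, 0.5 and 1. An edgeR fit with a covariate for MO2 and MC3, given below, called Hspd1 and Hsph1 as lower. These were 2 of 9, beside 16.4% of all genes called lower in that fit. DESeq2's unadjusted p for Hsph1 was 0.0483 (adjusted 0.305). The largest fitted differences were in Hspa1a, at 1.64 times its level in MS-5 alone, and in Hsph1 and Hspd1, at 0.698 and 0.705 times. The upper end of the 95% interval of the log2 fold change was under a 2-fold rise in 8 of the 9 members, Hspa1a being the exception, and under a 1.5-fold rise in 5 of 9. The lower end was past a 2-fold fall in Hspd1 (-1.33) and Hsph1 (-1.08), and it was -0.99 in Hspa8.

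**Figure D1:**
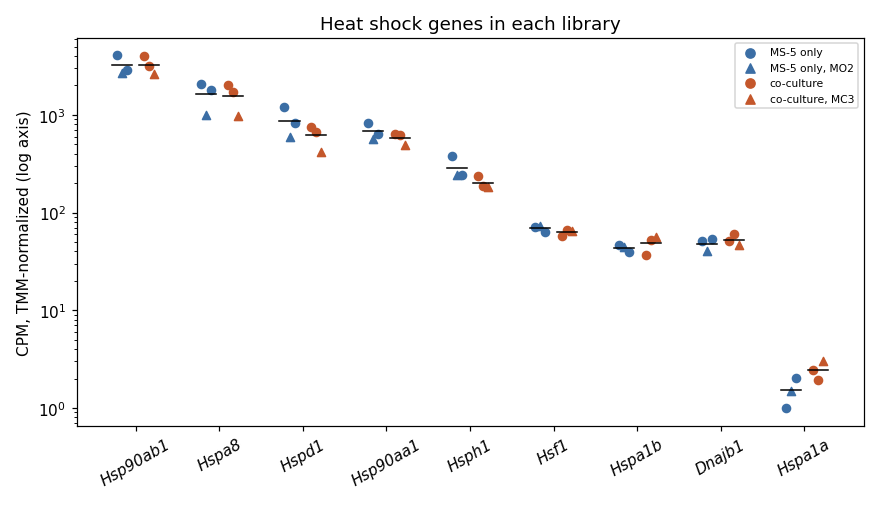
TMM-normalized CPM (log axis) of 9 heat shock genes in each library of MS-5 alone (blue) and co-culture (orange), ordered by mean TPM, with triangles for MO2 and MC3 and bars for the group means. In CPM, every co-culture point lies below every MS-5 alone point in Hsph1, and the groups overlap in the other 8 genes. Hspb1 is left out, with at most 5 counts in a library.

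By length-corrected level, in TPM (estimated counts over effective length, scaled to a common total), the constitutive members Hsp90ab1 and Hspa8 came first, with means over the 6 libraries of 1706 ± 280 and 1609 ± 225 TPM (SD, n = 6). Hspd1 (406 ± 99.7 TPM) and Hsp90aa1 (326 ± 69.9 TPM) followed, then Hsph1 (106 ± 31.8 TPM), Hsf1 (47.1 ± 15.9 TPM), Hspa1b (22.3 ± 8.09 TPM) and Dnajb1 (22.0 ± 3.37 TPM). Hspa1a (0.918 ± 0.482 TPM) and Hspb1 (0.105 ± 0.148 TPM) came last. Neighbours in this order were parted over all 6 libraries, with no overlap of their ranges, at Hspa8 over Hspd1, at Hsp90aa1 over Hsph1, at Dnajb1 over Hspa1a and at Hspa1a over Hspb1. The ranges of the other neighbours overlapped, and Hsp90ab1 was above Hspa8 in only 2 of 6 libraries, as Hspa1b was above Dnajb1. The place of Hspa8 depends on what is summed. Its non-coding transcript Hspa8-209, of 727 bases, held 703 to 1005 TPM and the coding Hspa8-202 held 664 to 905 TPM, below Hsp90ab1 in all 6 libraries. With the pseudogene Gm15459 added, Hspa8 had 2196 to 2991 TPM, and Hsp90ab1 was above it in 0 libraries.

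Hsf1, the regulator (GRCm38 chromosome 15, 76477422 to 76501913), had 71.1, 73.5 and 63.0 CPM in MO1, MO2 and MO3 and 57.4, 65.6 and 64.9 CPM in MC1, MC2 and MC3. The co-culture libraries overlapped with MO3 alone, and the lowest value was in MC1. The group means were 69.2 ± 5.54 and 62.6 ± 4.58 CPM (SD, n = 3), a log2 fold change of -0.14 (SE 0.13, 95% interval -0.45 to 0.16, adjusted p = 0.729 by edgeR). Hsf1 shares 0.402% of its 31-base words with other transcripts, so that its reads were hardly split.

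Hsf1 transcripts differ by a 66-base coding exon, exon 11 (chr15:76500131-76500196, plus strand), whose inclusion is known to part the longer alpha from the shorter beta form of the protein. The exon is in 7 of the annotated transcripts and skipped in 5. It is shown here, in capitals, between the last 15 bases before it and the first 15 after it, with the joint that forms without it.
With the exon: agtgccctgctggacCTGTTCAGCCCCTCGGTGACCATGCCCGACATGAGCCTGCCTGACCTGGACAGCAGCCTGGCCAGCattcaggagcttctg
Without the exon: agtgccctgctggacattcaggagcttctg
Among the counts on these 12 transcripts, the share on those without the exon was 26.6%, 19.4% and 15.9% in MS-5 alone and 25.0%, 10.6% and 20.2% in co-culture. The shares overlapped between groups and varied more within each group than between the group means. Transcripts annotated as retained introns took 7.39% and 8.22% of all Hsf1 counts in MO2 and MC3 and between 0.901% and 1.79% in the other 4 libraries.

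Hspa1b and Hspa1a encode the same inducible HSP70 from neighbouring genes on chromosome 17 (34956436 to 34959238 and 34969190 to 34972156, minus strand). Of the 31-base words of Hspa1a, 63.8% also occur in Hspa1b, so that the split of reads between them is uncertain. Hspa1b had 47.0, 44.7 and 39.4 CPM in MS-5 alone and 36.5, 52.1 and 56.1 CPM in co-culture. Its lowest and its 2 highest values were all in co-culture. The log2 fold change was 0.14 (SE 0.19, 95% interval -0.32 to 0.60, adjusted p = 0.856 by edgeR), and it was 0.33 for MC3 against MO2 and 0.04 for the mean of MC1 and MC2 against that of MO1 and MO3. With a single library left out it ranged from 0.02 without MC3 to 0.30 without MC1.

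Hspa1a had 25, 47 and 45 counts in MS-5 alone and 81, 46 and 104 in co-culture, or 0.998, 1.50 and 2.04 against 2.47, 1.91 and 3.03 CPM. MC2 lay below MO3, and the other co-culture libraries lay above all of MS-5 alone. The log2 fold change of 0.71 (SE 0.38, 95% interval -0.20 to 1.62) had an adjusted p of 0.483 by edgeR. Hspa1a took 2.08%, 3.24% and 4.92% of the summed counts of both genes in MS-5 alone and 6.35%, 3.54% and 5.12% in co-culture. In MO1 the exact 95% binomial interval of this share was 1.35% to 3.06%, which covers counting error only. With both genes summed, an alternative chosen after the values were seen, the levels were 48.0, 46.2 and 41.4 CPM in MS-5 alone and 38.9, 54.0 and 59.1 CPM in co-culture, and the log2 fold change was 0.17 (adjusted p = 0.808 by edgeR).

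The promoters of these genes are given because they are close to the same sequence while the counted levels of the genes are not. The 250 bases before the start of Hspa1b (chr17:34959239-34959488) and of Hspa1a (chr17:34972157-34972406), from RefSeq on GRCm38.p6, minus strand, differ at 3 positions. Capitals mark GAANNTTC, a pair of inverted heat shock element units.
Hspa1b: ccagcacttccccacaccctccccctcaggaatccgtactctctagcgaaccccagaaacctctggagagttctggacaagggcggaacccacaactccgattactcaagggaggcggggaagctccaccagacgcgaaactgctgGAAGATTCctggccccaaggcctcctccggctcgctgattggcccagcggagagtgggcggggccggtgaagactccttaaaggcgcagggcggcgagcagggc
Hspa1a: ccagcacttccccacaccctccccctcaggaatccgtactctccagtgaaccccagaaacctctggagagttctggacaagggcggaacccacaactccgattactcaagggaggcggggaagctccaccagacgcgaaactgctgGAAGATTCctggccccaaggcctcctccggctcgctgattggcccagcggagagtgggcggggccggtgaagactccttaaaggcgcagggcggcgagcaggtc
The pair starts 104 bases before the gene start in both. RefSeq promoter entries were found for 6 of the 10 members, with none for Hsf1, Hspa8, Hsp90aa1 and Hsp90ab1. In these windows GAANNTTC or TTCNNGAA, each of which reads the same on both strands, occurred in at least 1 entry of 5 of the 6 members, Dnajb1 being the exception, and of 14.5% of 27025 genes. Counted by entry, the windows with a match were 6 of 9 among the members and 12.8% of 32851 overall. Of the 5 members, Hspa1a and Hspa1b are near copies of each other. The Hsph1 entries overlap, and the same match was counted in each. The longer forms, GAANNTTC extended by NNGAA or TTCNNGAA extended by NNTTC, contain the shorter ones and are each searched on both strands through the other. They occurred in 1 of 9 entries of the members, in Hspd1, and in 0.466% of all entries. A match is a match of letters in a window and was not measured as binding.

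Hspa8 encodes HSC70, the constitutive HSP70 (chromosome 9, 40800984 to 40810087). It had 2055, 1008 and 1808 CPM in MO1, MO2 and MO3 and 2016, 1708 and 977 CPM in MC1, MC2 and MC3. The low values were those of MO2 and MC3, and the other 4 libraries lay between 1708 and 2055 CPM. The group means were 1624 ± 547 and 1567 ± 534 CPM (SD, n = 3), with a log2 fold change of -0.05 (SE 0.39, 95% interval -0.99 to 0.89, adjusted p = 0.989 by edgeR). It was -0.05 for MC3 against MO2 and -0.05 for the mean of MC1 and MC2 against that of MO1 and MO3. The sign changed when some single libraries were left out, with 0.17 without MO1, 0.03 without MO3 and 0.20 without MC3.

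Dnajb1 encodes HSP40, the J-domain partner that passes substrates to HSP70 and drives its ATPase (chromosome 8, 83608193 to 83612653). It had 51.0, 40.2 and 53.3 CPM in MS-5 alone and 51.1, 59.7 and 46.9 CPM in co-culture. The groups overlapped, with the lowest value in MO2 and the highest in MC2. The log2 fold change was 0.13 (SE 0.17, 95% interval -0.27 to 0.52, adjusted p = 0.852 by edgeR), and 0.01 without MO2, 0.02 without MC2 and 0.20 without MO3 or MC3.

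Hsph1 encodes HSP105, an HSP110 protein that exchanges the nucleotide on HSP70 (chromosome 5, 149614287 to 149636376, minus strand). It had 381, 243 and 243 CPM in MO1, MO2 and MO3 and 236, 189 and 181 CPM in MC1, MC2 and MC3. In CPM, Hsph1 was the one member whose groups did not overlap, with co-culture below MS-5 alone, as was the case in 9.6% of all genes tested. In TPM the groups overlapped, with 135, 152 and 88.9 in MS-5 alone and 84.8, 69.1 and 108 in co-culture, and the one member whose groups did not overlap was Hspd1, below in co-culture as in 7.53% of genes. The group means were 289 ± 79.4 and 202 ± 29.5 CPM (SD, n = 3), a log2 fold change of -0.52 (SE 0.23, 95% interval -1.08 to 0.04, adjusted p = 0.387 by edgeR). MO1 had the highest level, and without it the log2 fold change was nearest to 0 of the 6 fits that each left out a library, at -0.25. No other gene shares a 31-base word with Hsph1.

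The annotated Hsph1 transcript with the most counts took 70.9%, 64.2% and 64.6% of them in MS-5 alone and 57.0%, 51.7% and 61.7% in co-culture. Every co-culture library was below every MS-5 alone library in this share, which was noticed after the values were seen and not tested. The sequence with the shorter heat shock element pair of Hsph1 (RefSeq, GRCm38.p6, chr5:149636357-149636374, minus strand) lies within an exon of 1 annotated transcript, Hsph1-206, and upstream of the RefSeq starts.
Hsph1: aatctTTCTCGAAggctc

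The HSP90 genes are a pair of cytosolic paralogs, of which Hsp90aa1 encodes the inducible alpha form and Hsp90ab1 the constitutive beta form. Hsp90aa1 (chromosome 12, 110690605 to 110702728) had 826, 569 and 636 CPM in MS-5 alone and 632, 618 and 490 CPM in co-culture. The groups overlapped, the highest value being in MO1 and the lowest in MC3. Its log2 fold change was -0.22 (SE 0.22, 95% interval -0.75 to 0.31, adjusted p = 0.772 by edgeR), and -0.03 without MO1. Hsp90ab1 (chromosome 17, 45567775 to 45573271) had 4054, 2691 and 2913 CPM in MS-5 alone and 3993, 3180 and 2646 CPM in co-culture. The highest library of each group was replicate 1, and the lowest were MO2 and MC3. The log2 fold change of Hsp90ab1 was 0.02 (SE 0.32, 95% interval -0.74 to 0.79, adjusted p = 0.993 by edgeR), and it was negative in 3 of the 6 fits that each left out a library, at -0.09 without MO2, -0.05 without MO3 and -0.16 without MC1.

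Hspd1 encodes HSP60, the chaperonin of the mitochondrial matrix (chromosome 1, 55077835 to 55088243, minus strand). It had 1204, 593 and 829 CPM in MO1, MO2 and MO3 and 755, 675 and 422 CPM in MC1, MC2 and MC3. Among MO1, MO3, MC1 and MC2 the co-culture libraries were both lower, and MC3 was lower than MO2. In CPM over all 6 libraries the groups overlapped, since MO2 was below MC1 and MC2. In TPM they did not, with 583, 448 and 393 in MS-5 alone and 372, 315 and 323 in co-culture. The group means were 875 ± 308 and 617 ± 174 CPM (SD, n = 3), and the log2 fold change was -0.50 (SE 0.34, 95% interval -1.33 to 0.32, adjusted p = 0.61 by edgeR). It was -0.49 for MC3 against MO2 and -0.51 for the other libraries, but it came to -0.18 without MO1 and -0.29 without MC3, and to -0.72 without MO2. The match to the longer heat shock element lies at chr1:55088054-55088081 (RefSeq, GRCm38.p6, minus strand), within an exon of 1 annotated transcript, Hspd1-202, and before the second of the gene starts that RefSeq lists.
Hspd1: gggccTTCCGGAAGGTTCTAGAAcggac

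Hspb1 encodes HSP25, the mouse counterpart of human HSP27, a small heat shock protein that holds unfolded proteins without ATP (chromosome 5, 135887919 to 135889563, plus strand). It had 0, 5 and 1 counts in MS-5 alone and 0, 0 and 3 in co-culture, so that no fold was taken. A level of 0 at this depth allows up to 3 counts, or between 0.0873 and 0.136 CPM in these libraries. Of its 31-base words 55.4% occur in other genes, and the pseudogene that shares most of them, Hsp25-ps1, had 0 counts in all 6 libraries. Other small heat shock protein genes were counted, with 42.2 to 84.3 CPM for Cryab, 41.3 to 94.6 CPM for Hspb6 and 84.3 to 151 CPM for Hspb8, genes named after their values were seen. The 250 bases before the start of Hspb1 (RefSeq, GRCm38.p6, chr5:135887669-135887918, plus strand) hold GAANNTTC 2 times, in capitals, and are shown since the gene was at or near 0 in both groups.
Hspb1: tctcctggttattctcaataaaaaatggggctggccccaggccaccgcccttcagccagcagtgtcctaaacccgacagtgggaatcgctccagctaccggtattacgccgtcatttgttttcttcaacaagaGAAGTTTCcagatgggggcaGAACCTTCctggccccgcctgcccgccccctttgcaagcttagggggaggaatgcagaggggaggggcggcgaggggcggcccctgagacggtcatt

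A covariate for the split of MO2 and MC3 from the other libraries, seen above in their transcripts with a count and retained introns, was fitted as an alternative. Under it Hspd1 (log2 fold change -0.50, adjusted p = 0.0579) and Hsph1 (-0.51, adjusted p = 0.0929) passed edgeR's test as lower in co-culture. These were 2 of the 9 members, beside 30.2% of all genes called in that fit and 16.4% called lower, and 0 members passed as higher, beside 13.9% of all genes. Among the 4 libraries without MO2 and MC3, a comparison added after the values were seen, 0 members were called, with adjusted p = 0.204 for Hspd1 and 0.236 for Hsph1 by edgeR, beside 13.0% of genes called. Both log2 fold changes kept their sign in all fits. MO2 and MC3 were both below the other 4 libraries in 5 of the 9 members tested, beside 26.3% of all genes.

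**Figure D2:**
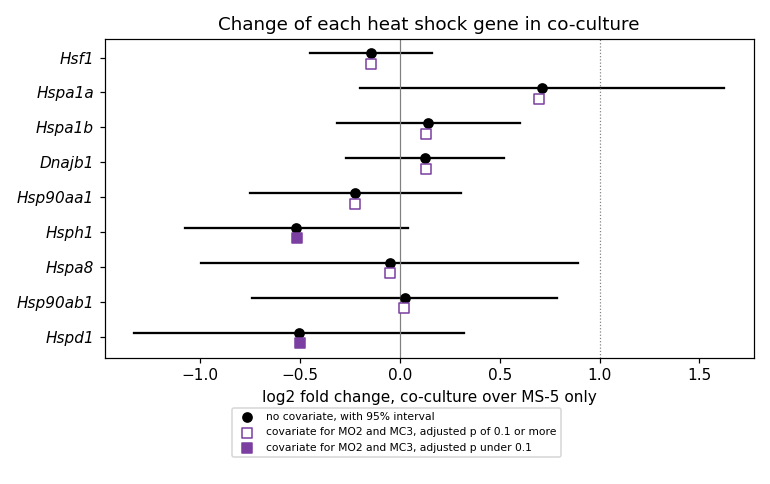
Log2 fold change of each heat shock gene, co-culture over MS-5 alone, by edgeR. Black points have their 95% interval, and purple squares are from the fit with a covariate for MO2 and MC3, filled where the adjusted p was under 0.1, as for Hsph1 and Hspd1. All black intervals include 0, and the interval of Hspa1a alone reaches past the dotted line, a 2-fold rise.

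Ratios of an inducible gene to its constitutive relative within a library need no scaling between libraries, and 3 of them were compared on log2 TPM. The ratio of Hspa1a and Hspa1b together to Hspa8 was -6.61, -5.62 and -6.63 in MS-5 alone and -6.86, -6.11 and -5.20 in co-culture. The libraries MO2 and MC3 had the highest value of their group, and the groups overlapped. The difference was 0.23 (SE 0.58, exact two-sided permutation test p = 0.7, 0.7 after adjustment over the 3 ratios). It turned to -0.20 without MC3 and was 0.63 without MC1.

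The ratio of Hsp90aa1 to Hsp90ab1 was -2.31, -2.22 and -2.24 in MS-5 alone and -2.64, -2.60 and -2.37 in co-culture. Every co-culture library was below every MS-5 alone library. The alpha gene stood at 20.9% of the beta gene in MS-5 alone and at 17.2% in co-culture, a difference of -0.28 on the log2 scale (SE 0.09, exact two-sided permutation test p = 0.1, adjusted 0.15). With 3 libraries against 3 the smallest p of this test is 0.1, so that no ratio could pass 0.05.

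Hsph1 was set against Hspa4, its constitutive HSP110 relative. The ratio was 0.01, -0.04 and -0.09 in MS-5 alone and -0.27, -0.56 and -0.26 in co-culture. In TPM every co-culture library was again below. Hsph1 stood at 97.1% of Hspa4 in MS-5 alone and at 77.7% in co-culture, a difference of -0.32 (SE 0.10, exact two-sided permutation test p = 0.1, adjusted 0.15). Over protein-coding transcripts only, the difference for Hsph1 to Hspa4 was -0.20. In summed counts it was -0.28, and the groups overlapped. There MC1, with 7723 counts of Hsph1 and 10932 of Hspa4, had a higher ratio than MO3, with 5366 and 7715. For the Hsp90aa1 and the Hsph1 ratio alike, the inducible gene was relatively lower in co-culture by the group means.

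**Figure D3:**
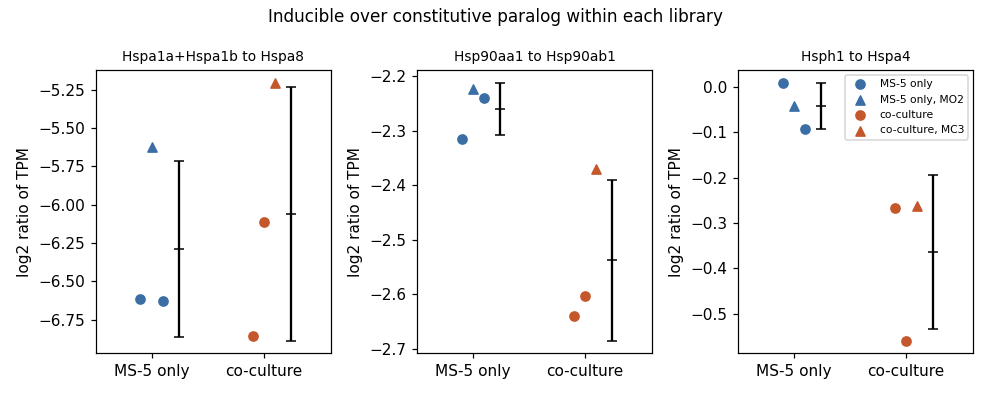
Log2 ratio of TPM of an inducible gene to its constitutive relative in each library, with triangles for MO2 and MC3 and, beside the points, the group mean with its SD (n = 3). In the middle and right panels the co-culture libraries all lie below the MS-5 alone libraries, and in the left panel the groups overlap. The axes do not start at 0.

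Genes around the heat shock response were taken from 9 lists of 72 genes, of which 71 are in the files and 66 were tested. By edgeR's quasi-likelihood test 0 of 66 were called, beside 4.38% of all genes. At an unadjusted p under 0.05 there were 4 (Hspa14, Chordc1, Ppid and Dnajb9), beside 14.3% of all genes. The log2 fold change was negative in 51 and positive in 15, with a median of -0.16, beside a median of -0.02 over all genes tested, of which 52.5% were negative. DESeq2 called Hspa14 and Chordc1 as lower, with adjusted p = 0.0136 and 0.0286, 2 of 66 beside 9.59% of all genes called by DESeq2. Without MO2 and MC3, edgeR called the same pair as lower (adjusted p = 0.077 and 0.0864), 2 of 65 beside 13.0% of all genes. With the covariate for MO2 and MC3, edgeR called 21 as lower and 2, Hspa2 and Dnajb9, as higher, beside 16.4% and 13.9% of all genes. MO2 and MC3 were both below the other libraries in 34 of the 66, beside 26.3% of all genes. In CPM every co-culture library was below every library of MS-5 alone in 6 of the 66 and above in 2, beside 9.6% and 11.6% of all genes.

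In the HSF family, Hsf2 and Hsbp1, whose product binds HSF1 and damps it, were tested, with log2 fold changes of -0.02 and -0.21. Hsf3 had no counts, and Hsf4 and Hsf5 were filtered out. Among the other HSP70 and HSP110 genes, 6 of 8 were negative. Hspa14, a ribosome-associated HSP70, had the lowest value there, with 91.1, 73.9 and 90.3 CPM in MS-5 alone and 61.7, 60.5 and 53.3 CPM in co-culture. Every co-culture library was lower, and the log2 fold change was -0.54 (SE 0.14, adjusted p = 0.124 by edgeR). Hspa2 had the highest, 0.64 (SE 0.30, adjusted p = 0.415 by edgeR).

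The J-domain co-chaperones, partners of HSP70 like Dnajb1, were the one list with more positive than negative values, 7 of 10, from -0.29 for Dnaja1 to 0.27 for Dnajb4. The nucleotide exchange factors and other HSP70 partners ranged from -0.47 for Hspbp1 to 0.11 for St13, with 7 of 9 negative. Of the HSP90 co-chaperones 10 of 11 were negative, with Unc45a at 0.02. The lowest of them, Chordc1, had 98.6, 77.9 and 81.4 CPM in MS-5 alone and 63.1, 60.9 and 58.2 CPM in co-culture. Its groups did not overlap, and the log2 fold change was -0.50 (SE 0.14, adjusted p = 0.139 by edgeR).

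Mitochondrial chaperones were negative in 6 of 6 genes, as Hspd1 was, from -0.48 for Hspe1, the HSP10 partner of HSP60, to -0.19 for Trap1. The cytosolic chaperonin subunits were negative in 7 of 7, from -0.30 for Cct5 to -0.06 for Cct4. In each of the 7 both MO2 and MC3 were below the other libraries, beside 26.3% of all genes. The small heat shock protein list ran from -0.43 for Hspb6 to 0.78 for Hspb7, the latter at 0.923 to 2.23 CPM. ER chaperones, best known as targets of the unfolded protein response, ran from -0.31 for Hyou1 to 0.44 for Dnajb9, and 6 of 8 were negative. Over all 6 libraries and without the covariate, edgeR called no gene of any list.

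**Figure D4:**
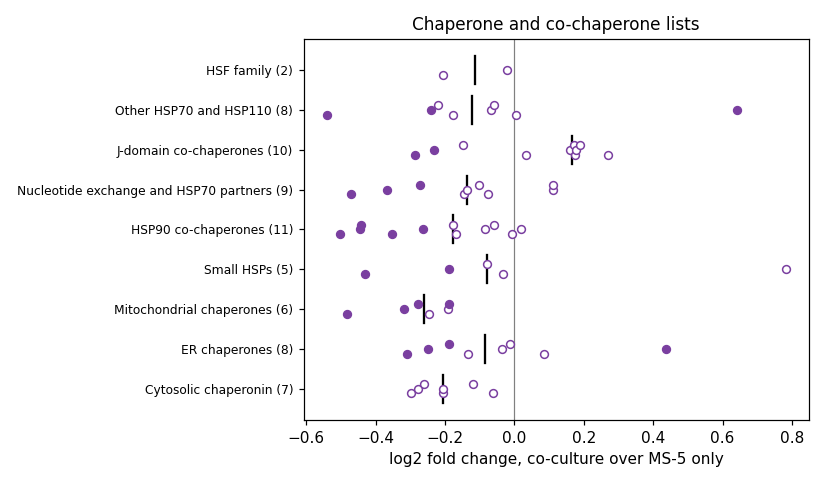
Log2 fold change of each tested gene in the 9 lists, co-culture over MS-5 alone, by edgeR, with the number tested in parentheses and a black bar at each list's median. Filled points had an adjusted p under 0.1 with the covariate for MO2 and MC3, 21 on the negative and 2 on the positive side. Vertical spread within a row has no meaning.

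Several members have pseudogenes whose sequence they share, so that a read can be counted on either. By words of 31 bases, 40.5% of Hspa8, 51.5% of Hsp90aa1, 13.2% of Hsp90ab1 and 53.1% of Hspd1 occur in other genes, against 0.444% of Dnajb1. For Hspa8 the largest share is with Gm15459, a pseudogene on chromosome 5 (5781615 to 5783555) that holds 85.6% of the words of the coding transcript Hspa8-202. Gm15459 had 44465, 27386 and 35949 counts in MS-5 alone and 57573, 35505 and 29465 in co-culture. It took between 46.3% and 47.4% of the summed counts of both in every library, and its log2 fold change of -0.06 (adjusted p = 0.983 by edgeR) was near that of Hspa8. The level of Hspa8 given above is thus that of one share of these reads, and with Gm15459 added the sum was 3830, 1880 and 3438 CPM in MS-5 alone and 3773, 3183 and 1835 CPM in co-culture.

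Pseudogenes that share at least 100 words with a member number 21. The 3 described here were picked for their difference after the values were seen. They had at most 12 counts in any library of MS-5 alone and passed the filter on low counts through the co-culture libraries, where they are high, so that their values are a description and no test is given. Gm9436, which resembles Hspa8 (chromosome X, 17674430 to 17676284), had 1, 12 and 6 counts in MS-5 alone and 383, 1839 and 413 in MC1, MC2 and MC3. Each co-culture library was above all of MS-5 alone, and MC2 had the highest value. Gm37348, also like Hspa8, had 2, 0 and 3 counts in MS-5 alone and 111, 505 and 71 in co-culture. Gm5511, like Hsp90aa1, had 4, 3 and 2 counts in MS-5 alone and 47, 272 and 70 in co-culture. In each of these genes MC2 was highest and all of MS-5 alone lay below co-culture.

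MC2 is also the library with the highest sum of leukocyte markers, 301 CPM against 78.1 and 80.5 in the other co-culture libraries. The part of RNA from other cells in these counts was not tested. Gm9436 shares 6.03% of its own words with Hspa8 and Gm37348 16.2%, while Gm5511 shares 43.7% with Hsp90aa1. The 10 Hspa8 pseudogenes other than Gm15459 summed to 47, 57 and 60 counts in MS-5 alone and 593, 2516 and 538 in co-culture, against 31680 to 66065 counts on Hspa8 itself. Gm9436 and Gm37348 held most of the co-culture sum, and the other 8 summed to 44, 45 and 51 counts in MS-5 alone and 99, 172 and 54 in co-culture. Among these, Gm8337 had 4, 5 and 8 counts in MS-5 alone and 21, 95 and 22 in co-culture. Gm8355 had 12, 9 and 16 counts in MS-5 alone and 10, 3 and 10 in co-culture. MC2 was the highest library in CPM in 11 of the 21 pseudogenes. Adding all copies left the log2 fold change of Hspa8 at -0.04.

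**Figure D5:**
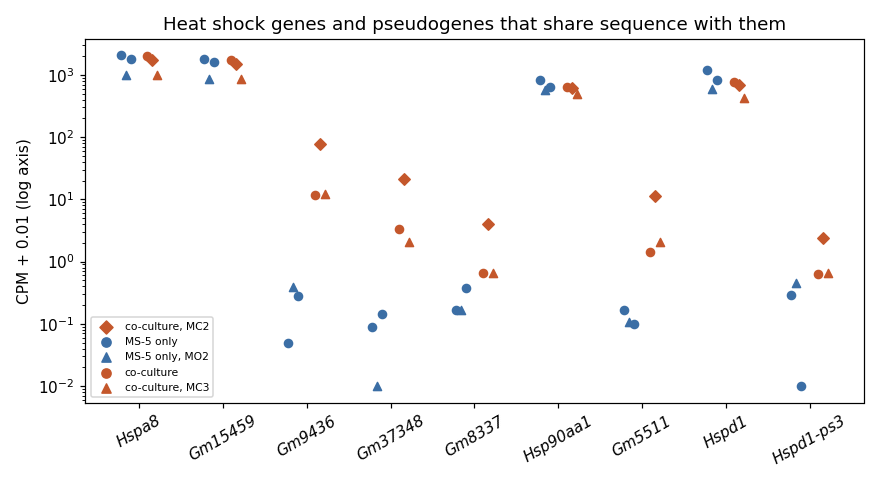
CPM plus 0.01 (log axis) of Hspa8, Hsp90aa1 and Hspd1 and of pseudogenes that share sequence with them, in each library. Diamonds mark MC2, triangles MO2 and MC3. Gm15459 follows Hspa8 library by library, while Gm9436, Gm37348 and Gm5511 lie higher in all co-culture libraries and highest in MC2.

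The profile of Hsf1 over the 6 libraries was most like those of Rasa1, Nup153 and Ppip5k2 among 9076 genes with a mean of at least 10 CPM, with Pearson correlations of log2 CPM of 0.993, 0.987 and 0.982. For Hspa1b the nearest were Bcor, Atf4 and Crim1, at 0.886, 0.879 and 0.862. Hspa8 was matched most closely by Aimp1, Surf1 and Rpl41, and, like Hspa8, all 3 had their lowest levels in MO2 and MC3. Rpl41 had 2092, 1027 and 1865 CPM in MS-5 alone and 2074, 1770 and 1030 CPM in co-culture. These correlations describe 6 libraries that share their depth and the split of MO2 and MC3. For each gene they are the 3 highest picked from 9076, and they were not tested.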

How the data were processed

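RNA-seq of MS-5 cells alone and in co-culture (3 libraries each, grouped by the sample labels) was quantified by the authors with Kallisto 0.43.0 against a mouse cDNA index (GRCm38). The deposited estimated counts per transcript had no normalization between libraries, and the deposited TPM values were scaled for effective length by the authors. Of 118489 transcripts, 116728 matched GENCODE M21 and 1761 were left out. Expected counts were summed per gene and rounded. Co-culture was compared with MS-5 alone by edgeR 4.0.16 (R 4.3.3; TMM, filterByExpr, quasi-likelihood test, Benjamini-Hochberg over all genes tested, threshold 0.1), with DESeq2 1.42.0, limma 3.58.1 on log2(TPM + 0.5), other filters and scalings, a replicate block and a covariate for MO2 and MC3 as alternatives. 95% intervals use the standard error and the quantile of the t distribution of the fit. Scripts were tested on simulated counts.

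The members, lists and named genes (all members, and the lowest and highest of each list where none passed) were chosen with earlier results of these data known. Pseudogenes were found by shared words of 31 bases, a rule set after values were seen in place of matching symbols. Total estimated counts were 23978881 to 35694987. Sleuth, the tool of the study, was not used here.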

Additional observations from a re-analysis of the deposited data

How the results depend on the processing

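The members showed 0 calls in edgeR, DESeq2 and limma and with each library left out, and 2 calls with the covariate for MO2 and MC3 (Hsph1 -0.51 and Hspd1 -0.50). Of 161 log2 fold changes of members under alternatives, 153 kept their sign and side of the threshold, 2 passed it, and 6 changed sign, all of them in Hspa8 (range -0.31 to 0.20) and Hsp90ab1 (-0.16 to 0.25) when 1 library was left out; the values were 0.17 without MO1, 0.03 without MO3 and 0.20 without MC3 for Hspa8, and -0.09 without MO2, -0.05 without MO3 and -0.16 without MC1 for Hsp90ab1. Over all genes the count of 579 became 2 at a threshold of 0.05, 0 at 0.01, 3999 with the covariate, 1702 without MO2 and MC3 (added after the values were seen), 1268 with DESeq2, 356 and 224 with limma at pseudocounts of 0.5 and 1, and 0 to 549 with a library left out. With 1 library left out, the differences of the ratios ranged between -0.36 and -0.23 for Hsp90aa1 to Hsp90ab1, -0.37 and -0.22 for Hsph1 to Hspa4 and -0.20 and 0.63 for Hspa1a and Hspa1b to Hspa8, and over protein-coding transcripts only that of Hsph1 to Hspa4 was -0.20. The log2 fold change of Hspd1 ranged from -0.72 to -0.18, nearest to 0 without MO1. The causes were not tested.

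The replicate numbers did not pair the libraries (correlations of deviations 0.53, -0.29 and -0.52 for numbers 1 to 3), and the replicate block gave 444 genes and 0 members. Hspa1a and Hspb1 rest on at most 104 and 5 counts in a library, which limits what could be detected in them.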
